A study of Danio rerio with 15 samples.

Results

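The comparison described here is melanoma against the skin next to it in zebrafish (Danio rerio) of the mitf-BRAFV600E;p53-/- line. Its members are the 12 arrays titled as melanoma 1 to 6 or skin 1 to 6 of that line, out of 15 arrays in the series, and they were chosen by title alone. Fish of both groups carried the same alleles: a mutant BRAF, BRAFV600E, under the promoter of mitf, which is active in the melanocyte lineage, and loss of the tumour suppressor p53. The fish were 4 to 8 months old and bore a visible melanoma. The tumour and the skin directly beside it were cut out separately, and total RNA was taken with Trizol. The skin samples, called mutant skin below, are therefore tumour-adjacent tissue of mutant fish, not healthy skin. The other 3 arrays, wild-type skin with the genotype label Tu taken along the side of the fish, entered the fit only to share the estimate of the spread, and their values are given as a description. Each sample is 1 array. The labels give no sex, no batch and no identity of the fish, and they do not say that samples of a group came from separate fish, so the p-values measure the spread between these samples.

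Melanocytes of fish arise from the neural crest, an embryonic cell population that also gives rise to other pigment cells, peripheral neurons and glia. The transcription factor Sox10 switches on mitfa, and Mitfa switches on the enzymes that make melanin. Melanin is made inside melanosomes, organelles related to lysosomes, and their cargo is sorted by protein complexes such as AP-3, HOPS and the BLOC complexes. BRAF is a kinase that relays signals from receptors at the cell surface through Ras to the MAP kinases, and its V600E form signals without that input.

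All levels below are log2 signals relative to a reference for each probe set that the sources used here do not state, so groups can be compared for a gene but genes cannot be compared with each other. Changes are mean melanoma minus mean mutant skin on the log2 scale, with the standard error of the limma fit to all 15 arrays. A gene is said to have risen or fallen where its p-value, adjusted by Benjamini-Hochberg over all 8793 genes, was under 0.05. Across genes this error had a median of 0.40, and the number of arrays limits the precision.

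Melanoma 6 stood apart from the other melanomas. Across genes, after each gene's mean over the arrays was subtracted, melanoma 1 to 5 had correlations of 0.630 to 0.807 with each other, whereas melanoma 6 had correlations of -0.431 to -0.332 with them and of -0.576 (mutant skin 3) to 0.864 (mutant skin 6) with mutant skin, below 0 with mutant skin 3, 4 and 5. Over 19 oocyte genes the mean level reached 4.12 in melanoma 6, whereas melanoma 1 to 5 lay between -3.54 and -3.05 and mutant skin between -2.83 and 4.73. Over 24 liver genes it reached 3.90 in melanoma 6, whereas melanoma 1 to 5 lay between -1.61 and -1.26 and mutant skin between -1.07 and 3.38. The oocyte level was above 0 in 7 arrays (melanoma 6, mutant skin 1, 2, 4 and 6 and wild-type skin 1 and 2), which are called the oocyte-rich arrays below. A fit without them rests on melanoma 1 to 5 and mutant skin 3 and 5. Mutant skin was uneven in its own right. The level of 23 keratinocyte genes, the marker of epidermis, was -1.68 in mutant skin 2 and -0.28 in mutant skin 6, against 1.21 to 1.92 in the other 4. In mutant skin 2 these markers were lower than in 5 of the 6 melanomas, although the array is labelled skin. Counts of called genes are given with all arrays and again without melanoma 6.

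With all arrays 652 genes rose (7.41% of 8793) and 495 fell (5.63%). Without melanoma 6 the numbers were 1205 (13.7%) and 757 (8.61%). The second set held nearly all of the first, with 651 of the 652 raised genes and 492 of the 495 lowered ones. Among the called genes, 588 of the raised and 480 of the lowered changed at least 2-fold with all arrays, and 1025 and 725 without melanoma 6. With a median standard error of 0.40 smaller changes seldom pass the threshold, so these counts do not describe the size of changes in general. In 141 genes (1.6%) each of the 6 melanomas exceeded every mutant skin array and in 103 (1.17%) all lay below. With melanoma 1 to 5 only, these numbers were 729 (8.29%) and 448 (5.09%). Of the 15502 probe sets, 6.44% rose and 4.35% fell with all arrays and 12.9% and 7.08% without melanoma 6. Leaving out mutant skin 1 gave 361 raised genes, and leaving out melanoma 1, 2, 4 or 5 gave 430, 403, 423 and 394, so each of these arrays moved it by over 1.5 times, in the direction opposite to melanoma 6. Leaving out melanoma 6 was the only omission of 1 array that moved the number lowered by as much. The median change of all genes was 0.02 with and without melanoma 6.

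Most measured genes of the melanin synthesis list were raised. The list holds enzyme genes such as dct and tyr as well as the regulator gene mitfa and the receptor gene mc1r. Of the 7 measured genes 5 rose and 0 fell with all arrays, beside 7.41% raised among all genes, and the same numbers held without melanoma 6. Their median change was 4.12, or 4.71 without melanoma 6. For the master regulator gene mitfa, melanoma 1 to 5 ranged from 2.28 to 3.36 and melanoma 6 was at -0.40 (median of the 6 arrays 2.73), whereas mutant skin ranged from -5.24 to -1.49 (median -4.05). The groups stood apart, and melanoma 6 was the lowest tumour. The change was 5.81 ± 0.74, or 56.1-fold (adjusted p = 0.00118), and 6.35 ± 0.64 without melanoma 6. In bulk tissue the number of cells of a type and the RNA per cell cannot be told apart, here and in every result below.

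The gene dct, whose product dopachrome tautomerase acts late in melanin synthesis, was the most variable of the group among melanomas. It was at 6.45 and 6.2 in melanoma 1 and 3, between 2.51 and 3.87 in melanoma 2, 4 and 5 and at 0.79 in melanoma 6, with mutant skin at -2.91 to -0.53 (median -1.44). Even the lowest melanoma lay above the highest skin array, and the change was 5.51 ± 0.83 (45.7-fold, adjusted p = 0.00255). The gene tyr encodes tyrosinase, the rate-limiting enzyme of melanin synthesis. Its level was far tighter, 3.45 to 4.24 in melanoma 1 to 5, with 0.11 in melanoma 6 and -2.07 to 0.73 in mutant skin (median -1.08). Melanoma 6 lay inside the range of mutant skin here, and mutant skin 2 was the highest skin array. The change in tyr was 4.12 ± 0.64 (17.4-fold, adjusted p = 0.00275).

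The gene mc1r encodes the melanocortin receptor, through which hormone signals raise pigment production. It was at 1.70 to 2.81 in melanoma 1, 2, 4 and 5, at -0.47 in melanoma 3 and at -0.93 in melanoma 6, and at -3.70 to -2.05 in mutant skin (median -3.19). Melanoma 3, with tyr at its highest level, had low mc1r, yet all 6 melanomas stayed above all skin. The change was 4.28 ± 0.59 (19.5-fold, adjusted p = 0.00173). The gene kita encodes the Kit receptor tyrosine kinase, which melanocytes need to migrate and survive. Melanoma 1 to 5 ranged from 0.76 to 3.47 and melanoma 6 was at -0.90 (median of the 6 arrays 1.72), against -4.01 to -0.23 in mutant skin (median -0.53). Melanoma 6 was below 4 of the 6 skin arrays. The change in kita was 2.65 ± 0.72 (adjusted p = 0.0268), and its call was lost without melanoma 1, 2, 3 or 4 or mutant skin 4 (adjusted p up to 0.0625). Adding the oocyte level of each array as a covariate gave kita an adjusted p of 0.0784.

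Both measured members that did not pass are duplicates of pigment genes. The change was -0.05 ± 0.26 for mitfb and -0.13 ± 0.23 for pmelb, with every array of both groups between -0.75 and 0.65 for mitfb. The pigment genes tyrp1b and pmela were not analysed here.

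**Figure D1:**
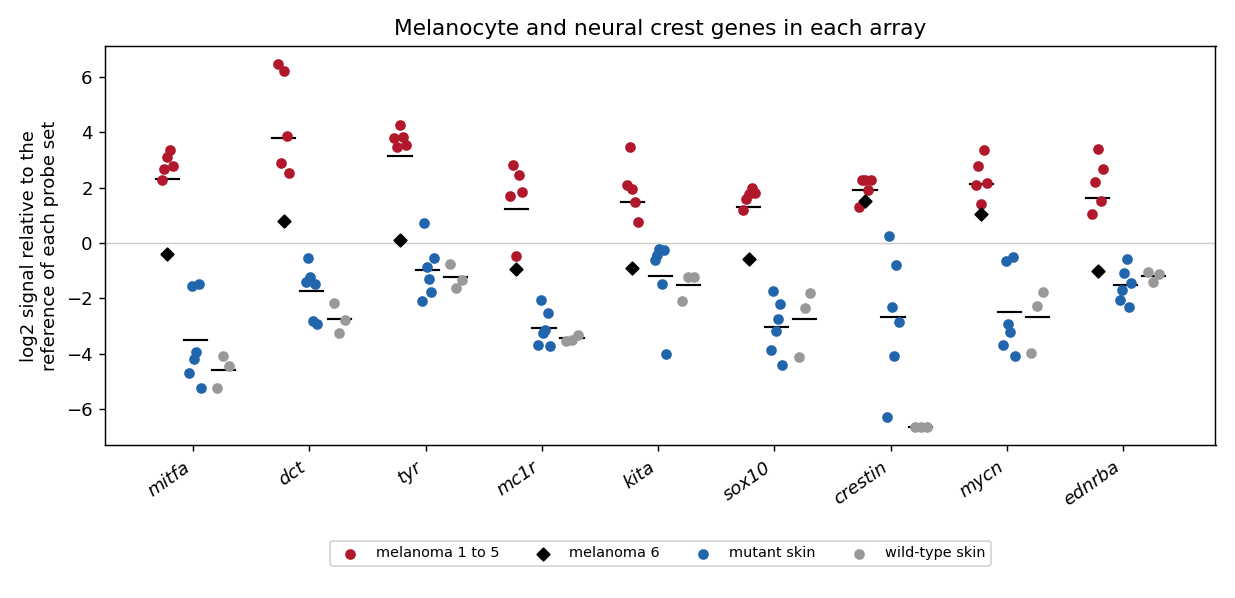
Levels of 9 melanocyte and neural crest genes in each array, as log2 signal relative to the reference of each probe set, with the mean of each group of 6, 6 and 3 arrays as a line. Melanoma 1 to 5 (red) lie above all mutant skin (blue) in each gene, and melanoma 6 (black diamonds) lies lower than melanoma 1 to 5 except in crestin, where it was at 1.53 and melanoma 1 at 1.29.

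Genes that sort cargo to melanosomes were raised too. Of 21 measured genes 13 rose and 0 fell with all arrays, and 15 and 0 without melanoma 6, with medians of 1.61 and 1.66. Raised members made up 61.9% and 71.4% of the list, beside 7.41% and 13.7% of all genes. The list level ranged from 0.84 to 1.08 over melanoma 1 to 5, with melanoma 6 at 0.04 and mutant skin at -0.82 to -0.19. This mean separated the melanomas from mutant skin without overlap. Leaving out 1 array gave 10 to 15 raised genes. Without the 7 oocyte-rich arrays 11 of the 21 rose, beside 972 of all 8793 genes.

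AP-3 is the adaptor complex that carries tyrosinase and other cargo from endosomes to melanosomes. The subunits of AP-3, HOPS and BLOC-1 are given below for each measured gene, a grouping made after their values were seen. In AP-3, 4 of 5 measured genes rose, with and without melanoma 6. The gene of its medium chain, ap3m2, was at 2.23 to 3.06 in melanoma 1 to 5 and at 0.03 in melanoma 6 (median of the 6 arrays 2.41), and at -2.23 to -0.93 in mutant skin (median -1.11). No array of either group reached the other, and the 5 melanomas other than melanoma 6 spanned less than 1 log2 unit. The change was 3.52 ± 0.45 (11.5-fold, adjusted p = 0.00118). The alternative medium chain gene, ap3m1, differed by 0.01 ± 0.24 (adjusted p = 0.991), with all 12 arrays between -0.06 and 0.57. The large chain gene ap3b1a rose by 2.21 ± 0.45 and the small chain genes ap3s2 and ap3s1 by 1.63 ± 0.33 and 1.27 ± 0.37. The call of ap3s1 was lost without any 1 of melanoma 1 to 5 or mutant skin 1, 2, 5 or 6 (adjusted p up to 0.0787).

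HOPS is the tether that joins vesicles to lysosomes and related organelles, and mutations of its zebrafish subunits are known to lighten pigment. All 5 measured subunit genes rose with all arrays, by 1.29 to 1.98, and all 5 without melanoma 6. For vps41, melanoma 1 to 5 ranged from 0.74 to 2.2 and melanoma 6 was at -0.70 (median of the 6 arrays 1.33), against -1.75 to -0.08 in mutant skin (median -0.96). Melanoma 6 fell within the skin range and the other 5 lay above it. Its change was 1.98 ± 0.45 (adjusted p = 0.0116). For vps33a, whose product helps SNARE proteins assemble, melanomas ranged from -0.52 to 0.87 (median 0.31) and mutant skin from -1.81 to -0.73 (median -1.40). The groups did not overlap in this gene or in vps39. The changes were 1.63 ± 0.31 for vps33a, 1.76 ± 0.36 for vps16, 1.61 ± 0.41 for vps18 and 1.29 ± 0.34 for vps39. Only the call of vps39 was lost in a setting run, without the 7 oocyte-rich arrays (adjusted p = 0.0538) and with the oocyte level as a covariate (0.053).

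BLOC-1 works beside AP-3 in forming transport tubules. Among its 5 measured subunit genes, dtnbp1a and snapin rose with all arrays, and bloc1s4 and bloc1s3 were added without melanoma 6 (adjusted p = 0.0237 and 0.0419). The gene dtnbp1a, which encodes dysbindin, was at 0.71 to 1.94 in melanoma 1 to 5, at 0.04 in melanoma 6 and at -1.47 to -0.53 in mutant skin (median -1.02). All melanomas were above all skin, with a change of 1.96 ± 0.29 (adjusted p = 0.00247). For snapin the change was 2.00 ± 0.51, a call lost without melanoma 5 or mutant skin 1 (adjusted p up to 0.0516). In hps4, a BLOC-3 gene, the change was 2.32 ± 0.60 and the groups overlapped, since mutant skin 2 and 6 were at 0.26 and 0.19 while melanoma 2 and 6 were at 0.00 and -0.11. Its call was lost without melanoma 5 (adjusted p = 0.051). The small GTPase gene rab32a, whose product acts with these complexes in delivering tyrosinase, was at 1.91 to 2.15 in melanoma 1, 2 and 3, at 0.92 and 0.43 in melanoma 4 and 5 and at -0.02 in melanoma 6. Mutant skin ranged from -1.08 to 0.02 (median -0.75), so melanoma 6 alone reached into the skin range, and the change was 1.83 ± 0.40 (adjusted p = 0.0102).

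**Figure D2:**
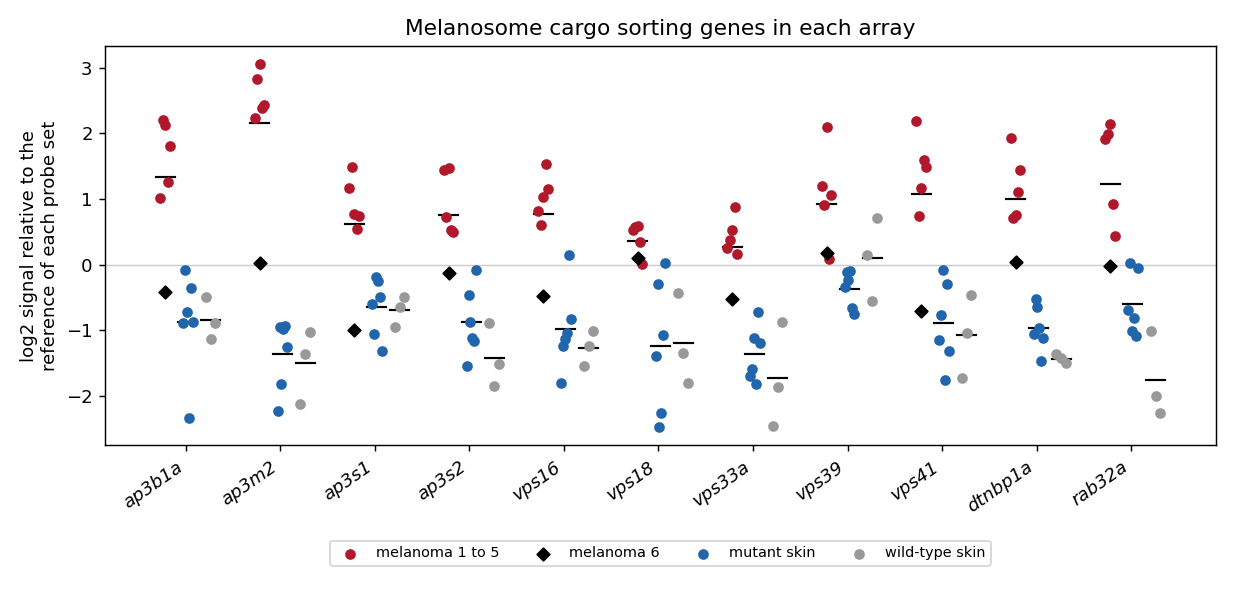
Levels of 11 genes of melanosome cargo sorting in each array, as log2 signal relative to the reference of each probe set, with group means as lines (6 melanoma, 6 mutant skin and 3 wild-type skin arrays). Melanoma 1 to 5 lie above all mutant skin in each gene except vps18, where melanoma 5 was at 0.01 and mutant skin 6 at 0.03.

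Regulators of the neural crest and of melanoblasts, the precursors of melanocytes, were raised in part. Of 21 measured genes 9 rose and 0 fell, and 11 and 0 without melanoma 6, with medians of 1.16 and 1.47. Raised members made up 42.9% and 52.4% of the list, beside 7.41% and 13.7% of all genes. The count was 6 to 11 when 1 array was left out.

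The gene sox10, the activator of mitfa, was at 1.18 to 2.00 in melanoma 1 to 5, at -0.59 in melanoma 6 and at -4.42 to -1.71 in mutant skin (median -2.97). The groups did not overlap, and melanoma 1 to 5 lay within 1 log2 unit of each other. The change was 4.32 ± 0.56 (adjusted p = 0.00118). The gene crestin is a zebrafish transcript that marks crest cells and is known to reappear in melanoma. It was at 1.29 to 2.28 in the 6 melanomas (median 2.09), with melanoma 6 at 1.53, at -6.27 to 0.25 in mutant skin (median -2.56) and at the lowest value, -6.64, in all 3 wild-type arrays. Melanoma 6 was as high as the other melanomas here, and mutant skin was spread over more than 6 log2 units, highest in mutant skin 2 and 5. The change was 4.59 ± 0.81 (24.1-fold, adjusted p = 0.00373). For mycn, which encodes an N-Myc transcription factor, melanomas ranged from 1.06 to 3.34 (median 2.13) and mutant skin from -4.06 to -0.50 (median -3.06). Melanoma 6 was the lowest melanoma and mutant skin 2 and 5 were again the highest skin arrays, without overlap, and the change was 4.64 ± 0.66 (adjusted p = 0.00173). The related genes myca, mycb and mych changed by 0.80, 0.33 and -0.17 and were not called.

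The endothelin receptor gene ednrba, which acts in pigment cell precursors, was at 1.05 to 3.40 in melanoma 1 to 5, at -1.02 in melanoma 6 and at -2.30 to -0.56 in mutant skin (median -1.58). Melanoma 6 lay within the skin range and the other 5 above it, with a change of 3.16 ± 0.58 (adjusted p = 0.00419). The genes snai2 and snai1a, whose products repress epithelial genes in migrating crest cells, changed by 1.99 ± 0.54 and 1.94 ± 0.50. For snai2, melanoma 1, 2, 4 and 5 were at 1.04 to 1.36, melanoma 3 at -0.12 and melanoma 6 at -1.46, with mutant skin at -3.05 to -0.85. The gene sox5, a modulator of Sox10, changed by 1.41 ± 0.33 (adjusted p = 0.014). The crest factor genes tfap2a and pax3a changed by 2.43 ± 0.67 and 1.32 ± 0.37. The call of snai2 was lost without melanoma 1, 2, 4 or 5 or mutant skin 1 (adjusted p up to 0.0659) and so was that of tfap2a (up to 0.0714). The call of pax3a was lost without melanoma 2, 4 or 5 or mutant skin 1, 5 or 6 (up to 0.0731), and without the 7 oocyte-rich arrays it was at adjusted p = 0.146. The gene foxd3, which holds crest cells undifferentiated, was not called with all arrays (2.38 ± 0.80, adjusted p = 0.0656) and was called without melanoma 6 (2.89 ± 0.74, adjusted p = 0.0134), without mutant skin 2 (0.0459) and in other settings, among them the fit without the 7 oocyte-rich arrays (0.0159). Likewise tfap2c was not called with all arrays (adjusted p = 0.0879) and was called without melanoma 6 (0.0112) and in other settings. Of tfap2c, 1 probe set changed by 2.29 and the other by 0.04.

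Other members did not pass. The change was -0.08 for sox9a and -0.91 for sox9b, duplicates of a crest gene that also acts in cartilage, 0.16 for pax7a, 0.98 for tfap2b and -1.19 for lef1.

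Among all genes called in both fits, the 12 largest rises were led by mitfa and dct and included col9a2, slc6a17, gdf6a, syngr1a and ablim3 beside the pigment and crest genes above. The gene col9a2 encodes a collagen IX chain, a component of cartilage matrix in other vertebrates. It was at 4.16 to 6.84 in melanoma 1 to 5, at 1.73 in melanoma 6, at 2.92 in mutant skin 2 and at -1.58 to 0.01 in the other 5 mutant skin arrays. Mutant skin 2 exceeded melanoma 6, and the change was 5.35 ± 0.86 (40.7-fold, adjusted p = 0.00285). The gene slc6a17 encodes a transporter of neutral amino acids known from synaptic vesicles of mammals. It was at 8.16 in melanoma 3, at 3.98 to 5.38 in melanoma 1, 2, 4 and 5, at 0.05 in melanoma 6 and at -1.78 to -0.10 in mutant skin (median -0.88). There was no overlap, and the change was 5.23 ± 0.93 (37.6-fold, adjusted p = 0.00373).

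The gene gdf6a encodes a BMP ligand, and mutants in zebrafish show that it acts on pigment cell fate in the crest. It was at 3.42 to 5.29 in melanoma 1 to 5, at 0.71 in melanoma 6, at 1.79 in mutant skin 2 and at -1.64 to -0.09 in the other mutant skin arrays. The change was 4.39 ± 0.74 (21.0-fold, adjusted p = 0.00315). The gene syngr1a encodes synaptogyrin, a vesicle membrane protein, and ablim3 an actin-binding protein. Their changes were 4.12 ± 0.48 (adjusted p = 0.00118) and 4.04 ± 0.73 (adjusted p = 0.00383), and in both the groups did not overlap.

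Of 34 measured receptor tyrosine kinases, which signal through Ras, and their ligands 2 rose and 3 fell (3 and 5 without melanoma 6), with a median of -0.35. These shares with all arrays, 5.88% raised and 8.82% lowered, were near the 7.41% and 5.63% of all genes. Without the 7 oocyte-rich arrays 4 of the 34 rose and 9 fell, beside 972 and 1003 of all 8793 genes. With the oocyte covariate 1 rose and 10 fell, beside 976 and 957. Apart from kita, the fibroblast growth factor receptor gene fgfr4 rose. It was at 1.76 to 5.31 in melanoma 1 to 5, at -0.72 in melanoma 6 and at -1.83 to 0.94 in mutant skin (median -0.49). Melanoma 4 and 5 were the highest, melanoma 6 lay inside the skin range, and the change was 3.32 ± 0.87 (adjusted p = 0.0228) or 4.05 ± 0.68 without melanoma 6. The other measured FGF receptor genes, fgfr1a, fgfr2 and fgfr3, changed by -0.31, -1.61 and -2.47 and were not called with all arrays. The call of fgfr2 was gained without mutant skin 2 (-2.07, adjusted p = 0.00823) and in other settings. Among them was the fit without the 7 oocyte-rich arrays (-2.83, adjusted p = 0.00345). Without mutant skin 2, fgfr3 was called too, with a change of -3.22. With all arrays the genes that fell were igf2a (-3.06 ± 0.89), musk (-2.62 ± 0.76) and flt4 (-0.78). They encode an insulin-like growth factor, a receptor of the neuromuscular junction and the receptor of lymphatic endothelium. The level of the muscle markers, given below, moved in the same direction as musk, and its part in that result was not tested.

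These calls depended on single arrays. That of fgfr4 was lost without melanoma 2, 4 or 5 or mutant skin 1 (adjusted p up to 0.0566) and with the oocyte covariate, where its change was 2.12 (adjusted p = 0.0656). Those of igf2a and musk were lost without any 1 of melanoma 1, 2 or 5 or mutant skin 1, 3, 4 or 5, igf2a also without melanoma 3 and musk also without melanoma 4 (up to 0.0852), and that of flt4 without any 1 of melanoma 1 to 5 or mutant skin 1, 3, 5 or 6 (up to 0.0941). The number lowered was 0 without melanoma 1, 2 or 5 or mutant skin 1, 3 or 5, 1 without melanoma 3 or 4 or mutant skin 4, and 6 without mutant skin 2. The number raised was 0 without melanoma 2 or 4 and 1 without melanoma 1, 3 or 5 or mutant skin 1 or 4.

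Inside the cell, of 30 measured genes of the Ras, PI3K and mTOR pathways 1 rose and 1 fell. Without melanoma 6, the only array whose omission changed this, 4 rose and 1 fell. The shares raised were 3.33% and 13.3%, beside 7.41% and 13.7% of all genes. The share lowered was 3.33% in both fits, beside 5.63% and 8.61%. The adaptor gene grb2a, which links receptors to Ras, was at -0.24 to 1.42 in melanoma (median -0.09) and at -2.30 to -0.45 in mutant skin (median -1.35). All melanomas were above all skin, melanoma 2 highest, and the change was 1.52 ± 0.38 (adjusted p = 0.0168). The gene akt2l, which encodes an Akt-type kinase, fell (-1.54 ± 0.36), and its probe sets differed, with changes of -2.88 and -0.20. The kinase gene araf, a relative of braf, was at 0.64 to 1.67 in melanoma 1 to 5 and at -1.43 in melanoma 6, against -2.11 to 0.55 in mutant skin. It was not called with all arrays (adjusted p = 0.109) and was called without melanoma 6 (1.87 ± 0.49, adjusted p = 0.0153), as well as with array quality weights (0.0175) and the replicate number as a block (0.0288). The genes map2k1, map2k2a and mapk3, the kinases below Raf, changed by 0.05, -0.18 and -0.20, and nras by -0.62, none of them called.

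Of 60 measured genes of the TGF-beta, BMP, Notch and hedgehog pathways 2 rose and 3 fell (4 and 4 without melanoma 6). With all arrays these were 3.33% and 5.00%, no more than the 7.41% and 5.63% of all genes. Without the 7 oocyte-rich arrays 3 of the 60 rose and 14 fell, beside 972 and 1003 of all 8793 genes. With the oocyte covariate 2 rose and 14 fell, beside 976 and 957. The type 2 TGF-beta receptor gene tgfbr2b was at -3.77 to -0.76 in melanoma (median -1.53) and at -0.78 to 1.51 in mutant skin (median 0.83). Melanoma 6 was the highest melanoma and mutant skin 2 the lowest skin array, and they met, while melanoma 1 to 5 lay below all skin. The change was -2.46 ± 0.52 (adjusted p = 0.00843). The inhibitory Smad gene smad6a, which dampens BMP signals, fell by 1.19 with no overlap between groups. The gene gli2a, a transcription factor of the hedgehog pathway, was at 1.72 to 3.78 in melanoma 1 to 5, at -0.14 in melanoma 6 and at -0.41 to 0.35 in mutant skin (median -0.01). Melanoma 6 lay among the skin arrays and the other 5 well above them, with a change of 2.16 ± 0.50 (adjusted p = 0.0137). The gene lfng, whose product adds sugars to Notch receptors, changed by 2.58 ± 0.72, and the activin inhibitor gene fsta by -1.50 ± 0.44. The call of lfng was lost without any 1 of melanoma 1 to 5 or mutant skin 1 and that of fsta without any 1 of melanoma 1 to 5 or mutant skin 1, 3, 4 or 5 (adjusted p up to 0.0846). The number raised in this list was 1 without any 1 of melanoma 1 to 5 or mutant skin 1, and the number lowered was 9 without mutant skin 2.

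Transfer RNA synthetases charge transfer RNAs with amino acids. Of 20 measured synthetases and their scaffold proteins 6 rose and 0 fell (30.0% raised beside 7.41% of all genes), and 12 and 0 without melanoma 6, the only array whose omission moved the count by over 1.5 times. The changes were above 0 in 19 of the 20 in both fits, beside 4508 of 8793 among all genes, and the median was 0.70 (0.83 without melanoma 6). The list level ranged from 0.43 to 1.1 over melanoma 1 to 5, highest in melanoma 5, whereas melanoma 6 was at -0.32, within the -0.73 to 0.02 of mutant skin. Without the 7 oocyte-rich arrays 4 of the 20 rose, beside 972 of all 8793 genes.

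The scaffold gene eef1e1 was at 0.65 to 2.26 in melanoma 1 to 5, at -0.29 in melanoma 6 and at -1.32 to -0.47 in mutant skin (median -0.79). The groups did not overlap, and the change was 2.08 ± 0.38 (4.22-fold, adjusted p = 0.00389). The synthetase genes nars1 (asparagine), yars1 (tyrosine) and tars1 (threonine) changed by 1.60 ± 0.38, 1.38 ± 0.31 and 1.34 ± 0.32. In tars1 melanomas ranged from 0.18 to 1.81 (median 0.82) and mutant skin from -1.51 to 0.09 (median -0.17), with no overlap. The genes eprs1 and gars1 changed by 1.12 and 1.11, calls that were lost without melanoma 1, 3, 4 or 5 or mutant skin 1 or 4 and, for gars1, also without melanoma 2 or mutant skin 2, 3 or 6 (adjusted p up to 0.107). Without the 7 oocyte-rich arrays the change was 0.63 for eprs1 and 0.73 for gars1 (adjusted p = 0.182 and 0.258), and with the oocyte covariate it was 0.63 and 0.67 (0.071 and 0.134).

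A few amino acid supply genes rose as well. Of 20 measured genes of serine synthesis, one-carbon metabolism and amino acid uptake 3 rose and 0 fell (4 and 0 without melanoma 6), and 1 fell without mutant skin 2. The gene slc1a4 encodes a transporter of serine, alanine and related amino acids. It was at 3.62 to 4.49 in melanoma 1, 4 and 5, at 0.93 in melanoma 2, at 0.07 in melanoma 6 and at -0.08 in melanoma 3, and at -1.56 to -0.30 in mutant skin (median -0.85). Melanomas fell into a high and a low set, yet none overlapped with skin, and the change was 3.1 ± 0.78 (adjusted p = 0.0186). Without the 7 oocyte-rich arrays the adjusted p of slc1a4 was 0.106. The gene slc3a2a encodes the heavy chain that brings amino acid exchangers to the cell surface. Its melanomas ranged from 0.09 to 1.95 (median 1.31) and mutant skin from -2.08 to -0.35 (median -1.0), without overlap, and the change was 2.3 ± 0.43 (adjusted p = 0.00444). The gene phgdh, the first enzyme of serine synthesis, changed by 2.21 ± 0.52 (adjusted p = 0.0137), with melanoma 6 at -0.09 and mutant skin 6 at 0.08. The next enzyme, psat1, did not pass (1.60 ± 0.62, adjusted p = 0.106).

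With all arrays few genes of the large assemblies that handle RNA were called. Of 112 measured spliceosome genes 7 rose and 0 fell, a share of 6.25% that was near the 7.41% of all genes, and 23 rose without melanoma 6, or 20.5% beside 13.7%. In 102 of the 112 the change was above 0 (97 without melanoma 6), and the median was 0.51 beside 0.02 for all genes. The gene hnrnpul1, which encodes an RNA-binding protein, led the list. Melanoma 1 to 5 ranged from 0.62 to 1.73, melanoma 6 was at -0.06 and mutant skin ranged from -0.84 to -0.01 (median -0.59), so melanoma 6 alone reached the skin range, and the change was 1.51 ± 0.30 (adjusted p = 0.0058). The core protein gene snrpd1 and the splicing factor gene srsf1a changed by 1.3 ± 0.31 and 1.27 ± 0.32, and without the 7 oocyte-rich arrays their adjusted p values were 0.0507 and 0.226. The number raised was 3 without melanoma 1 or 5 or mutant skin 1, 4 without melanoma 2 or mutant skin 3 or 5 and 12 without mutant skin 2 or 6. The level of the list was 0.13 to 0.53 in melanoma 1 to 5 and -0.43 to -0.32 in mutant skin 1, 3, 4 and 5, but 0.14 and 0.32 in mutant skin 2 and 6, which had oocyte levels of 4.43 and 4.73.

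Of 79 measured ribosome biogenesis genes 3 rose and 0 fell (5 and 0 without melanoma 6), which is 3.80% and 6.33% of the list and below the 7.41% and 13.7% of all genes. The change was above 0 in 68 (61 without melanoma 6), with a median of 0.28. The 3 raised with all arrays were imp4, bysl and nat10. Here too mutant skin 2 and 6 were at 0.67 and 0.78 and the other mutant skin arrays at -0.64 to -0.36, with melanomas at -0.08 to 0.47. The number raised was 0 without melanoma 1, 2 or 5 or mutant skin 1, 3 or 5, 1 without melanoma 3 or 4 or mutant skin 4, 5 without mutant skin 2 and 6 without mutant skin 6. Of 61 measured chromatin modifier genes 4 rose and 0 fell (9 and 1 without melanoma 6), with a median of 0.40. The shares raised, 6.56% and 14.8%, were near the 7.41% and 13.7% of all genes. The gene chd4a, the remodelling ATPase of the NuRD complex, was at 0.30 to 2.02 in melanoma (median 1.41) and at -0.95 to 0.00 in mutant skin (median -0.67). The groups did not overlap, and the change was 1.89 ± 0.33 (3.70-fold, adjusted p = 0.00373). The deacetylase gene hdac1, another NuRD member, changed by 0.97 ± 0.27, the demethylase gene kdm5bb by 1.23 ± 0.36 and the heterochromatin protein gene cbx1b by 1.15 ± 0.34. These 3 calls were lost without melanoma 2, 4 or 5 or mutant skin 1, 3 or 4, hdac1 also without mutant skin 5, kdm5bb also without melanoma 3 and cbx1b also without melanoma 1 or mutant skin 6 (adjusted p up to 0.0979). The number raised was 1 without melanoma 2, 4 or 5 or mutant skin 1, 3 or 4 and 9 without mutant skin 6. The chromatin level was also highest among mutant skin in mutant skin 2 and 6 (0.46 and 0.58), while mutant skin 1, with an oocyte level of 2.69, was at -0.26. The part of the oocyte transcripts in these counts was not tested. Without the 7 oocyte-rich arrays 18 of 112 spliceosome genes, 18 of 79 ribosome biogenesis genes and 14 of 61 chromatin genes rose. Among all 8793 genes 972 rose in that fit.

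Genes that dispose of peroxides and recycle glutathione split. Of 41 measured genes of iron handling and redox metabolism 8 rose and 4 fell, and 10 and 7 without melanoma 6. With all arrays these were 19.5% and 9.76%, beside 7.41% and 5.63% of all genes. Without melanoma 6 they were 24.4% and 17.1%, beside 13.7% and 8.61%. The gene gstt1a, a glutathione transferase, was at 1.96 to 4.54 in melanoma 1 to 5, at 0.29 in melanoma 6 and at -1.82 to 0.06 in mutant skin (median -0.70). Melanoma 6 was the lowest tumour yet above all skin, and the change was 3.43 ± 0.66 (10.8-fold, adjusted p = 0.00506). The peroxiredoxin gene prdx1 was at 0.21 to 1.61 in melanoma (median 1.21) and at -2.93 to -0.11 in mutant skin (median -1.83). Again there was no overlap, with mutant skin 2 and 6 nearest to the melanomas, and the change was 2.52 ± 0.47 (5.74-fold, adjusted p = 0.00435). The quinone reductase gene nqo1, the glutathione reductase gene gsr, the pentose phosphate genes pgd and taldo1 and the iron transporter gene slc11a2 changed by 2.11, 1.53, 1.12, 1.05 and 0.99.

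In the other direction, the glutathione peroxidase gene gpx1b was at -1.66 to -0.85 in melanoma 1 to 5, at 2.07 in melanoma 6 and at 0.95 to 3.92 in mutant skin (median 2.08). Melanoma 6 was as high as skin and the other 5 lay below every skin array, with a change of -2.92 ± 0.65 (adjusted p = 0.0105) or -3.46 ± 0.51 without melanoma 6. The genes gstk1, mgst3a and sod2, which encode glutathione transferases and the mitochondrial superoxide dismutase, changed by -2.55, -1.92 and -1.26. The gene tfa, which encodes the serum iron carrier transferrin, made in the liver, was at 6.67 in melanoma 6 and at -1.63 to -0.91 in melanoma 1 to 5, and was not called with all arrays (adjusted p = 0.126). It was called without melanoma 6 (-4.75 ± 0.95, adjusted p = 0.00293) and, among other settings, without the 7 oocyte-rich arrays (0.000906). The raised count was 3 to 5 without any 1 of melanoma 1 to 5 and 4 without mutant skin 1, and the lowered count was 1 without melanoma 3 or 5 or mutant skin 4 and 2 without melanoma 1 or mutant skin 1 or 5. The calls of nqo1, pgd, taldo1, slc11a2, gstk1 and mgst3a were each lost without melanoma 1, 3 or 5 or mutant skin 1 and without other arrays (adjusted p up to 0.0953), gsr without melanoma 4 or 5 (up to 0.0539) and sod2 without melanoma 3 or 5 or mutant skin 4 (up to 0.0587). Leaving out melanoma 2 ended the calls of nqo1, pgd, taldo1, slc11a2 and mgst3a, and leaving out melanoma 4 those of nqo1, taldo1 and gstk1. Mutant skin 3 did so for nqo1 and gstk1, mutant skin 4 for nqo1, pgd, gstk1 and mgst3a, mutant skin 5 for gstk1 and mgst3a, mutant skin 6 for nqo1, pgd and mgst3a, and mutant skin 2 for mgst3a.

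**Figure D3:**
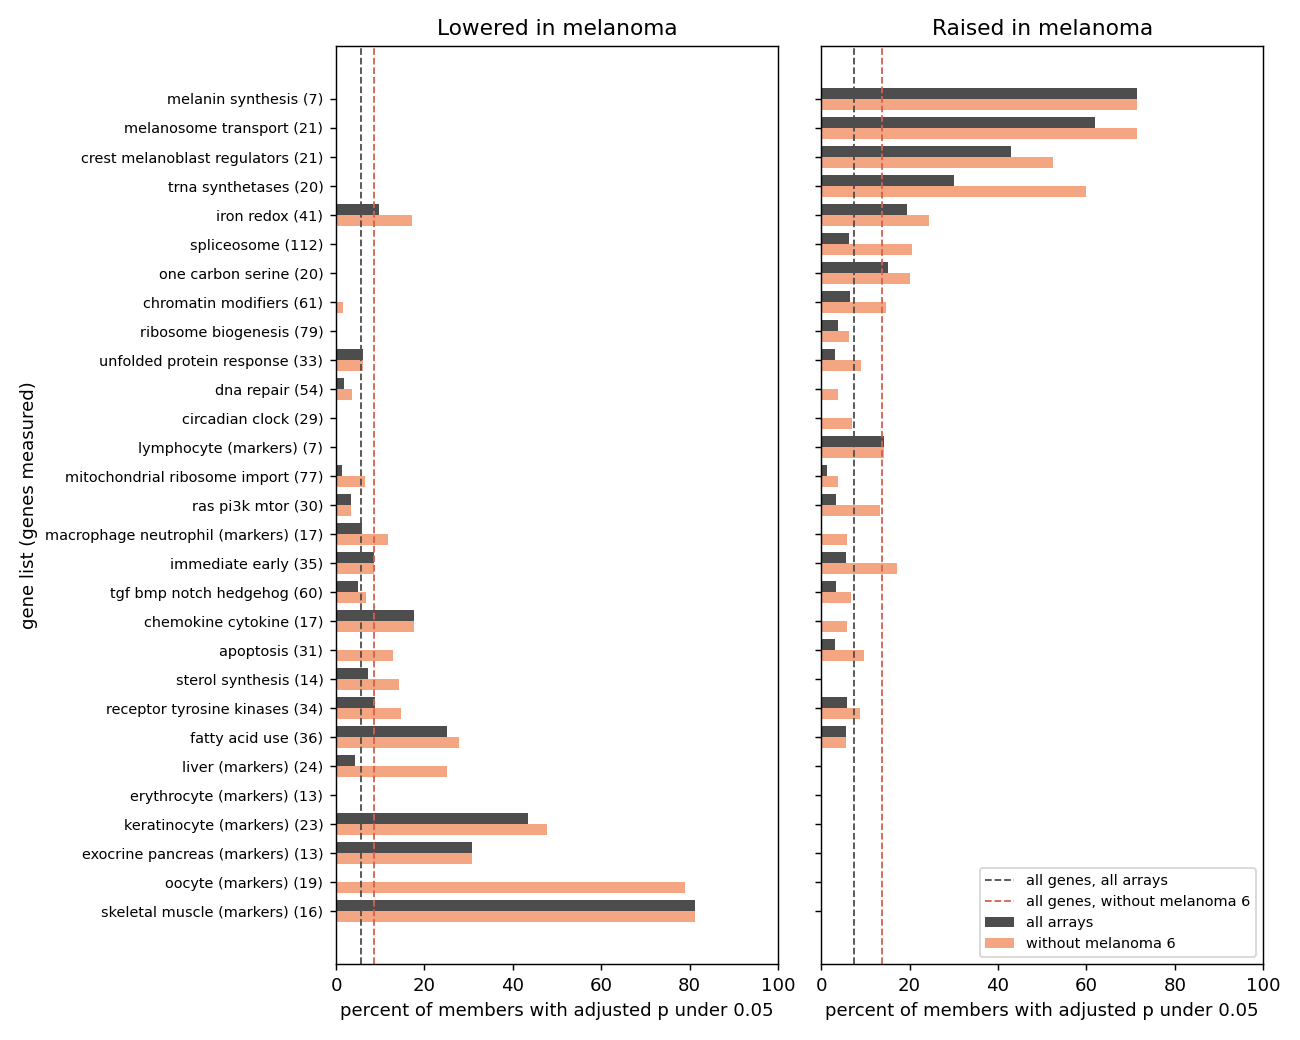
Percent of the measured members of each of 29 gene lists that fell (left) or rose (right) in melanoma with an adjusted p under 0.05, with all arrays (dark) and without melanoma 6 (light). Dashed lines are the shares over all 8793 genes, 5.63% and 8.61% lowered and 7.41% and 13.7% raised. In the right panel the pigment, transport, crest, transfer RNA synthetase, redox, amino acid supply and lymphocyte lists exceed both lines. The lymphocyte list does so with 1 of 7 genes.

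Skeletal muscle genes were the most strongly lowered. Of 16 measured markers 13 fell and 0 rose with all arrays and without melanoma 6, beside 5.63% and 8.61% lowered among all genes, with medians of -5.76 and -6.50. The level of the list was -4.53 to -2.73 in melanoma 1 to 5, 0.94 in melanoma 6, -0.07 to 2.73 in mutant skin and 2.13 to 3.13 in wild-type skin. Melanoma 6 thus lay within the range of skin, and mutant skin 2 and 6, at -0.07 and 0.58, were the lowest skin arrays. The 12 largest falls among genes called in both fits were all genes of muscle or of its energy supply: myl13, mybphb, tpma, mybpc2b, tnnc2.2, ldb3a, myl1, myl10, slc25a4, tnni2a.3, ldb3b and tmem38a.

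The myosin light chain gene myl13 was at -6.64 to -4.08 in melanoma 1 to 5, at -0.93 in melanoma 6 and at -0.69 to 4.48 in mutant skin (median 3.64). Every melanoma lay below every skin array, and the change was -7.28 ± 1.06 (adjusted p = 0.00198). The tropomyosin gene tpma was at -6.59 to -4.92 in melanoma 1 to 5, at 1.93 in melanoma 6 and at -0.14 to 3.36 in mutant skin (median 2.76). Melanoma 6 lay in the middle of the skin range, and the change was -6.78 ± 1.21 (adjusted p = 0.00373), or -8.09 ± 0.58 without melanoma 6. The parvalbumin gene pvalb2, a calcium buffer of fast fibres, was at the lowest value of the table, -6.64, in melanoma 1 to 5, and at -1.04 to 1.54 in mutant skin. That value is a floor, so the changes of pvalb2 and of other muscle genes that reach it, such as myl13, myl1, tnnc2.2 and slc25a4, are bounds, as is that of pvalb2 without melanoma 6, -7.28 ± 0.39. The 3 markers that did not pass were mb, acta1a and tnnt3a, with changes of -1.73, -1.48 and -0.61.

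Genes of fatty acid use were lowered too. Of 36 measured genes 2 rose and 9 fell (2 and 10 without melanoma 6), with a median of -0.82. Among all genes 5.63% fell with all arrays and 8.61% without melanoma 6, where the 10 lowered genes were 27.8% of the list. The 2 raised genes were 5.56% of the list in both fits, beside 7.41% and 13.7% of all genes. The number lowered was 8 to 13 when 1 array was left out. Without the 7 oocyte-rich arrays 18 of the 36 fell, beside 1003 of all 8793 genes. The 9 genes include 7 that encode enzymes of fatty acid oxidation in the mitochondrion: hadhaa, eci1, acadm, acadl, hadhb, decr1 and ech1. The dehydrogenase gene acadm, for medium-chain fatty acids, was at -1.50 to -0.31 in melanoma (median -1.02) and at -0.15 to 1.18 in mutant skin (median 0.73). The groups did not overlap, with melanoma 6 and mutant skin 2 nearest to each other, and the change was -1.58 ± 0.31 (2.98-fold lower, adjusted p = 0.00583). For hadhaa, a subunit of the trifunctional protein, melanoma 1 to 5 ranged from -4.42 to -1.43, melanoma 6 was at 0.07, and mutant skin ranged from -0.63 to 0.95 (median -0.08). Melanoma 6 was as high as skin, and the change was -2.61 ± 0.63 (adjusted p = 0.0152) or -3.14 ± 0.49 without melanoma 6.

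The changes were -1.82 ± 0.38 for eci1, -1.45 ± 0.34 for acadl, -1.16 ± 0.26 for decr1 and -1.02 ± 0.25 for ech1. That of hadhb, -1.25 ± 0.38, lost its call without melanoma 1, 2, 4 or 5 or mutant skin 1, 3, 4 or 5 (adjusted p up to 0.102). The 2 probe sets of ech1 changed by -1.70 and -0.34. The lipoprotein lipase gene lpla, which frees fatty acids from blood lipids, changed by -2.40 ± 0.56, and the uptake gene slc27a1a by -1.36 ± 0.30. Entry of fatty acids into mitochondria is set by the cpt1 genes, of which cpt1b and cpt1ab changed by -2.15 and -1.94 and were not called with all arrays (adjusted p = 0.0662 and 0.0713). Both were called without mutant skin 2 (0.0239 and 0.0174) or 6 (0.0235 and 0.0336), without the 7 oocyte-rich arrays and with the oocyte covariate, and with the replicate number as a block cpt1ab was called (0.0304). The fatty acid binding gene fabp3 rose, with melanomas at -0.32 to 0.88 (median 0.62) and mutant skin at -1.23 to -0.34 (median -0.83), without overlap and with a change of 1.25 ± 0.26 (adjusted p = 0.00768). The other raised gene, slc27a2a (1.11), lost its call without melanoma 1, 2, 4 or 5 or mutant skin 1, 2, 3, 5 or 6 (adjusted p up to 0.108), which leaves 1 raised gene. Muscle, which is rich in these enzymes, moved with the list. The fatty acid level was -0.82 to -0.45 in melanoma 1 to 5, 0.09 in melanoma 6, -0.61 in mutant skin 2 and -0.19 to 0.92 in the other mutant skin arrays, and the muscle level was also higher in melanoma 6 than in melanoma 1 to 5 and lowest among skin in mutant skin 2. The part of muscle in these changes was not tested.

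Keratinocyte genes fell in melanoma. Of 23 measured markers 10 fell and 0 rose (11 and 0 without melanoma 6), with medians of -2.17 and -2.11. Lowered members made up 43.5% and 47.8% of the list, beside 5.63% and 8.61% of all genes. The periplakin gene ppl, a component of the cornified envelope and of desmosomes in mammals, was at -2.97 to 0.08 in melanoma (median -1.02), at -0.93 and 0.31 in mutant skin 2 and 6 and at 3.17 to 4.40 in the other 4 mutant skin arrays. The latter 4 were far above all melanomas, and mutant skin 2 lay among the melanomas. The change was -3.61 ± 0.85 (12.2-fold lower, adjusted p = 0.0141). The keratin gene krt97 was at -4.65 to 0.01 in melanoma, lowest in melanoma 2, and at -1.83 in mutant skin 2 and 1.87 to 3.92 in the other skin arrays, with a change of -4.02 ± 0.98 (adjusted p = 0.0163). The tight junction gene cldnb fell by 2.43, and tp63, which encodes the transcription factor that maintains the epidermis, fell by 2.5. The epithelial adhesion gene epcam changed by -1.72 ± 0.47, with 1 probe set at -2.87 and another at -0.58, and the cadherin gene cdh1 did not pass (-0.60, adjusted p = 0.332).

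The number of keratinocyte genes lowered depended on single arrays of both groups. It was 3 without melanoma 2 or 5, 4 without mutant skin 1, 5 without melanoma 1 or mutant skin 3, 4 or 5, and 18 without mutant skin 2. Without the 7 oocyte-rich arrays 16 of the 23 fell, beside 1003 of all 8793 genes. With the oocyte covariate 15 fell, beside 957. The call of tp63 was lost without melanoma 1, 2 or 5 or mutant skin 1, 3, 4 or 5 (adjusted p up to 0.068) and that of epcam without melanoma 1, 2 or 5 (up to 0.0638). With the oocyte covariate the change of epcam was -0.91 (adjusted p = 0.0623).

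With all arrays few chemokine and cytokine genes were called. Of 17 measured genes 0 rose and 3 fell (1 and 3 without melanoma 6), with medians of -0.21 and -0.02. The share lowered was 17.6% in both fits, beside 5.63% and 8.61% of all genes. The shares raised were 0% and 5.88%, beside 7.41% and 13.7%. In the fit without the 7 oocyte-rich arrays 1 of the 17 rose and 7 fell, beside 972 and 1003 of all 8793 genes. The fit with the oocyte covariate gave 0 raised and 7 lowered, beside 976 and 957. The gene csf1b encodes a ligand of the macrophage receptor Csf1r. It was at 2.05 in melanoma 3 and at -1.51 to -0.86 in the other melanomas, and at -0.60 to 5.21 in mutant skin (median 3.35). Mutant skin 2 and 6, at -0.60 and 0.52, lay below melanoma 3, and the change was -3.49 ± 1.00 (11.3-fold lower, adjusted p = 0.0328). The chemokine genes ccl25b and cxcl12a changed by -3.07 ± 0.84 and -2.91 ± 0.78, also with low values in mutant skin 2. The receptor gene csf1ra, which is expressed in macrophages and in yellow pigment cells of zebrafish, was at 0.03 to 2.01 in melanoma 1 to 5, at -2.35 in melanoma 6 and at -2.48 to -0.94 in mutant skin, and was not called with all arrays (adjusted p = 0.0552). It was called without melanoma 6 (2.33 ± 0.40, adjusted p = 0.00105) and, among other settings, without the 7 oocyte-rich arrays (0.0351). The number lowered was 0 without melanoma 1, 2 or 5 or mutant skin 1, 3, 4 or 5 (adjusted p up to 0.0772 for csf1b, which was also lost without melanoma 4) and 5 without mutant skin 2 or 6. The level of the list was -1.04 in mutant skin 2 and -0.81 in mutant skin 6, below all of melanoma 1 to 5, so the 2 skin arrays with low keratinocyte levels were also low here.

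Of 17 measured macrophage and neutrophil markers 0 rose and 1 fell (1 and 2 without melanoma 6). The shares lowered, 5.88% and 11.8%, were near the 5.63% and 8.61% of all genes. The shares raised were 0% and 5.88%, beside 7.41% and 13.7%. Other fits gave more lowered markers. Without the 7 oocyte-rich arrays 1 of the 17 rose and 4 fell, beside 972 and 1003 of all 8793 genes. With the oocyte covariate 1 rose and 5 fell, beside 976 and 957. The lysozyme gene lyz was at -3.60 to -1.88 in melanoma 1 to 5, at 1.67 in melanoma 6 and at -0.46 to 3.12 in mutant skin (median 0.85). Melanoma 6 was among the skin arrays and the change was -3.42 ± 0.83 (adjusted p = 0.0158). The second marker lowered without melanoma 6 was apoc1 (-3.86 ± 0.77, adjusted p = 0.00279). It was at 4.59 in melanoma 6, at -1.92 to -0.94 in melanoma 1 to 5 and at -0.05 to 4.94 in mutant skin. Other leukocyte genes did not pass, with changes of -0.24 for mpx, the neutrophil peroxidase gene, -0.02 for ptprc, the pan-leukocyte gene, and 0.54 for spi1b, a myeloid regulator. Of 7 measured lymphocyte genes runx3 alone rose (2.16 ± 0.65), a call lost without any 1 of melanoma 1 to 5 or mutant skin 1, 2, 3, 4 or 6 (adjusted p up to 0.0928). This 1 gene was 14.3% of the list with all arrays and without melanoma 6, beside 7.41% and 13.7% raised among all genes. Of 13 measured red blood cell genes 0 passed at the limma threshold with all arrays or without melanoma 6, and 3 fell without mutant skin 2. Their level was -2.02 to 0.03 in melanoma 1 to 5 and -1.96 to 1.65 in mutant skin, and the haemoglobin gene hbba2 changed by -1.98 ± 1.45.

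In the fit of all arrays, genes that respond within minutes to stimulation or injury did not move together. Of 35 measured genes 2 rose and 3 fell (6 and 3 without melanoma 6), with a median of -0.15. These shares, 5.71% and 8.57%, were near the 7.41% and 5.63% of all genes. Without melanoma 6 they were 17.1% and 8.57%, beside 13.7% and 8.61%. The fit without the 7 oocyte-rich arrays gave 3 raised and 9 lowered, beside 972 and 1003 of all 8793 genes. The oocyte covariate gave 1 raised and 13 lowered, beside 976 and 957. The nuclear receptor gene nr4a1 was at -1.76 to 0.34 in melanoma (median -1.0) and at 0.43 to 4.28 in mutant skin (median 3.08). The groups did not overlap, though mutant skin 2 and 6 came close to melanoma 6, and the change was -3.45 ± 0.66 (10.9-fold lower, adjusted p = 0.00506). The transcription factor gene cebpd and the growth restraint gene btg2 fell by 1.94 and 1.13. The 2 probe sets of btg2 changed by -1.86 and -0.39. The gene ier5l rose. In it melanoma 1 to 5 ranged from 1.61 to 3.81, melanoma 6 was at 0.00 and mutant skin ranged from -2.66 to -0.04 (median -1.45), with no overlap and a change of 3.94 ± 0.67 (15.3-fold, adjusted p = 0.00318). The other raised gene, gadd45bb (1.26), was lost without any 1 of melanoma 1 to 5 or mutant skin 1, 3 or 4 (adjusted p up to 0.0756), which leaves 1. Widely used genes of this response, fosab, jun and egr1, changed by -1.06, -0.91 and 0.30 and were not called. The number lowered was 7 without mutant skin 2 and 5 without mutant skin 6.

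Lists for survival, repair, protein folding and mitochondria held few calls with all arrays. Their shares raised were 0% to 3.23%, beside 7.41% of all genes, and their shares lowered 0% to 6.06%, beside 5.63%. Without melanoma 6 they were 3.70% to 9.68% raised, beside 13.7%, and 3.70% to 12.9% lowered, beside 8.61%. Of 31 apoptosis genes 1 rose and 0 fell (3 and 4 without melanoma 6). The gene that rose was mcl1a (1.03 ± 0.32), which encodes a survival protein, and its call was lost without melanoma 2, 3, 4 or 5 or mutant skin 1, 3 or 4 (adjusted p up to 0.101). The apoptosis list also gave 1 lowered gene without melanoma 4 or mutant skin 6 and 2 without mutant skin 2. The genes lowered without melanoma 6 include birc5b and bokb, which were at 7.56 and 4.98 in melanoma 6. In the oocyte-rich mutant skin arrays 1, 2, 4 and 6, birc5b was at 3.41 to 7.87 and bokb at 0.49 to 6.36. In mutant skin 3 and 5 they were at -0.87 and -0.42 and at -0.30 and 0.33. The part of the oocyte transcripts in these calls was not tested. Of 54 DNA repair genes 0 rose and 1 fell (2 and 2 without melanoma 6). That one, the glycosylase gene neil1, which starts repair of oxidised bases, was at -1.81 to -0.44 in melanoma 1 to 5, at 0.10 in melanoma 6 and at -0.10 to 1.40 in mutant skin (median 0.68), with a change of -1.69 ± 0.36 (adjusted p = 0.00838). Leaving out mutant skin 2 or 6 gave 1 raised repair gene. Without the 7 oocyte-rich arrays 15 of the 54 rose, beside 972 of all 8793 genes. The repair level was 1.23 and 1.31 in mutant skin 2 and 6, above all melanomas, and -0.91 to -0.20 in the other mutant skin arrays.

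Of 33 genes of the unfolded protein response 1 rose and 2 fell (3 and 2 without melanoma 6). The chaperone gene calr3b changed by 1.27 ± 0.34 and the transcription factor gene creb3l2 by -1.32 ± 0.34, and chac1, which encodes an enzyme that degrades glutathione, by -0.86. Of chac1, 1 probe set changed by -1.71 and the other by -0.01. The gene hspa5, the main chaperone of this response, changed by 0.64 and was not called. The call of calr3b was lost without melanoma 1 or 3 or mutant skin 4 (adjusted p up to 0.0571), that of creb3l2 without melanoma 1 or 4 (up to 0.0529) and that of chac1 without melanoma 1, 2, 4 or 5 or mutant skin 1, 3 or 4 (up to 0.0756). The number raised was 2 without mutant skin 2 and 3 without mutant skin 6. Of 77 genes of the mitochondrial ribosome and of protein import 1 rose and 1 fell (3 and 5 without melanoma 6), and 2 rose without mutant skin 2. The raised gene, tomm40l, encodes a form of the import channel of the outer membrane. It was at 0.75 to 2.29 in melanoma (median 1.64) and at -2.10 to 0.07 in mutant skin (median -0.38), with no overlap and a change of 2.23 ± 0.36 (adjusted p = 0.00285). The lowered gene, mrpl52 (-1.18 ± 0.33), lost its call without melanoma 2, 3, 4 or 5 or mutant skin 3, 4 or 5 (adjusted p up to 0.0692).

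Of 14 sterol synthesis genes 0 rose and 1 fell (0 and 2 without melanoma 6). The shares lowered were 7.14% and 14.3%, beside 5.63% and 8.61% of all genes. The first committed steps run through hmgcs1, which changed by -1.92 ± 0.58, a call lost without melanoma 1, 2, 4 or 5 or mutant skin 1, 3, 4 or 6 (adjusted p up to 0.0974). Of 29 circadian clock genes 0 passed with all arrays and 2 rose without melanoma 6, cry4 and clockb. These 2 were 6.90% of the list, below the 13.7% of all genes raised without melanoma 6. Of 13 exocrine pancreas genes 0 rose and 4 fell with and without melanoma 6. These 4 were 30.8% of the list, beside 5.63% and 8.61% lowered among all genes. The chymotrypsin gene ctrb.1 was at -0.50 to -0.18 in all 6 melanomas and at 8.18, 6.91 and 4.21 in mutant skin 4, 1 and 5, but at 0.05 to 1.14 in the other 3 skin arrays. The pancreas level of the melanomas was -1.29 to -0.90, that of mutant skin 1 and 4 was 3.2 and 5.14, and the lowered count was 1 without melanoma 1 or mutant skin 1, 2 without any 1 of melanoma 2 to 5 or mutant skin 4 or 5, and 8 without mutant skin 2. The call of ctrb.1 was lost without any 1 of melanoma 1 to 5 or mutant skin 1, 4 or 5 (adjusted p up to 0.101).

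Of 24 liver genes 1 fell with all arrays, 6 without melanoma 6 and 2 without mutant skin 2. The first count was 4.17% of the list, beside 5.63% of all genes, and the 6 stood beside 8.61% without melanoma 6. The retinol carrier gene rbp4 was the one that fell in both (-3.48 ± 0.80, adjusted p = 0.0127). Of 19 oocyte genes 0 passed with all arrays, 15 fell without melanoma 6 and 3 fell without mutant skin 3, the mutant skin array with the lowest oocyte level, -2.83. The 15 were 78.9% of the list, beside 8.61% of all genes lowered without melanoma 6. The egg coat gene zp2.6 was at 8.06 in melanoma 6, at -3.03 to -1.31 in melanoma 1 to 5, at -2.01 in mutant skin 3 and at 3.75 to 8.40 in the other mutant skin arrays.

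**Figure D4:**
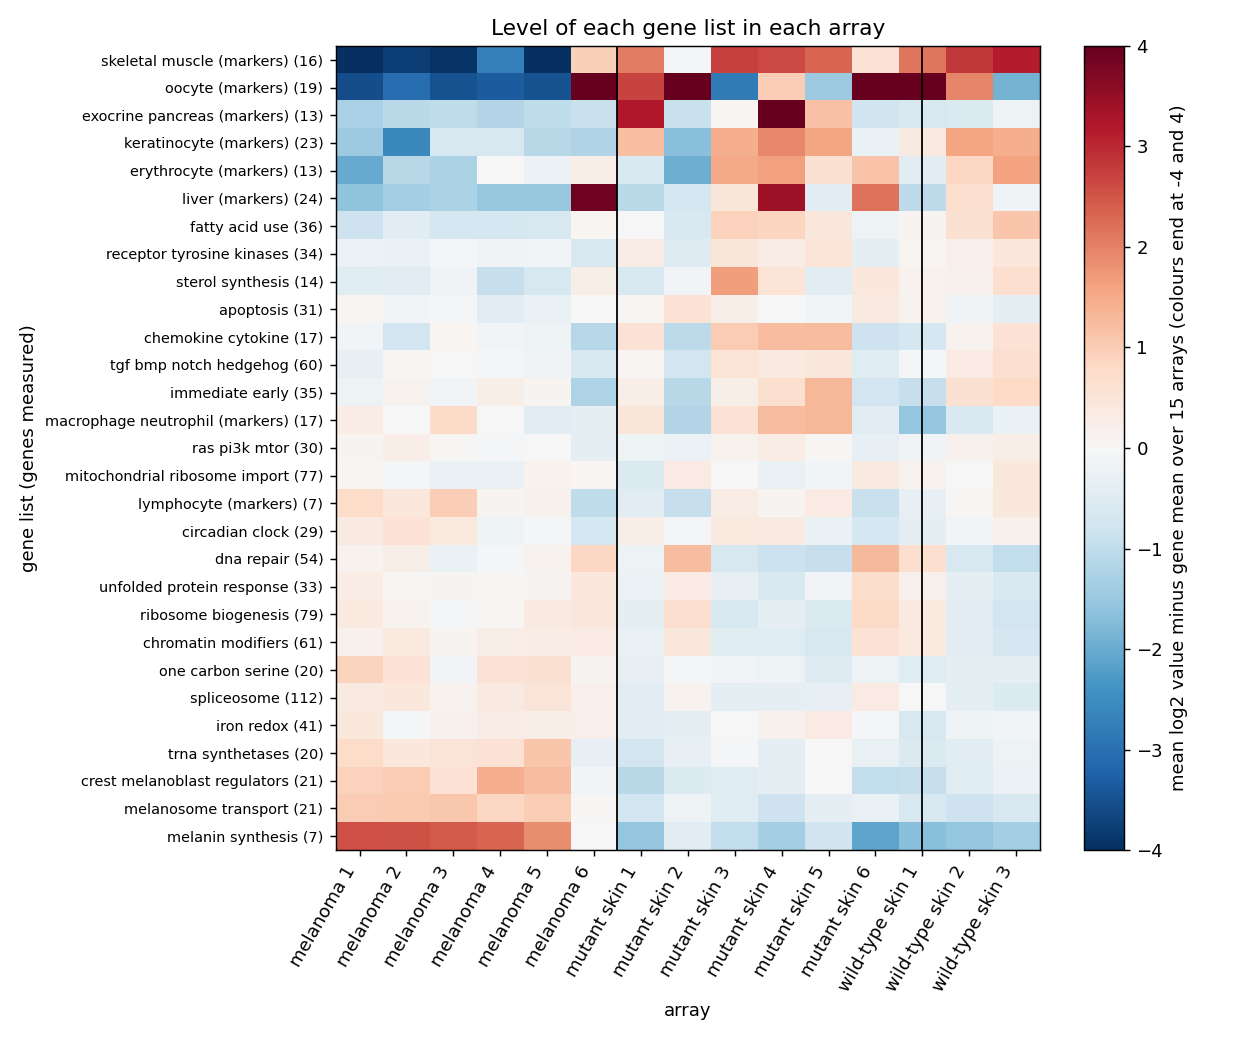
Mean level of each of 29 gene lists in each array, as the mean over members of the log2 value less the average of that gene in the 15 arrays, with colours ending at -4 and 4. Melanoma 1 to 5 have low oocyte, liver and muscle levels, melanoma 6 has an oocyte and a muscle level within the range of mutant skin and a liver level of 3.90 above it, and mutant skin 2 and 6 have lower keratinocyte levels than the other mutant skin.

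Melanoma 1 to 5 were more alike than the skin samples. The median SD over genes was 0.45 among melanoma 1 to 5, 0.61 with melanoma 6 added and 0.74 among mutant skin. The gene with the largest SD among the 5 was rpe65a, which encodes the retinoid isomerase of the retinal pigment epithelium. It was at 10.4 in melanoma 3, at 4.61 and 3.80 in melanoma 4 and 5 and at -1.08, -0.86 and -1.23 in melanoma 1, 2 and 6, with mutant skin at -1.57 to -0.51. A high level was thus present in 3 melanomas and in no skin array. The secretogranin gene scg2a, which encodes a protein of neuroendocrine granules, was at 6.45 in melanoma 3 and at -1.98 to -1.25 in the other 5 melanomas. Melanoma 3 also had the highest slc6a17, tyr and lfng of the 6, the lowest mc1r of melanoma 1 to 5, and 5.03 for nkl.4, an NK-lysin gene of cytotoxic lymphocytes, against -0.54 to 0.44 in the other melanomas. The other genes with the largest SD were f13a1a.1, LOC100002043, zgc:77614 and si:ch211-145c1.1. For f13a1a.1, a coagulation factor gene, the mutant skin arrays varied as widely, from -5.13 to 4.18. It was at -3.86 and -4.09 in melanoma 2 and 3 and at 0.49 to 3.41 in the other melanomas. In mutant skin 2 and 3 it was at -5.13 and -3.84, and at 0.28 to 4.18 in the other mutant skin arrays.

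A group of 3 clock and hormone-responsive genes split the melanomas in another way. The transcription factor gene klf9 was at -0.34, 0.32 and -0.08 in melanoma 1, 2 and 3 and at -3.74, -3.51 and -3.35 in melanoma 4, 5 and 6. The gene cry1a, a repressor of the clock, was at 0.03 to 0.70 in the first 3 and at -2.74 to -1.22 in the last 3, and nfil3-6, a clock-linked repressor, was at -0.48 to -0.19 and -3.23 to -2.42. These genes were chosen after their values were seen, they varied as widely in mutant skin (klf9 from -1.99 to 2.26), and none was called between the groups. The time of day of sampling is not among the labels.

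Melanoma 6 was set beside the other melanomas in the genes called without it. Of the 1205 genes raised without melanoma 6, it lay on the same side of the mutant skin mean in 683 (56.7%) and above every mutant skin array in 183 (15.2%). In the median gene it had gone 5.42% of the way from the mutant skin mean to the mean of melanoma 1 to 5 (quartiles -19.9% and 33.0%). Of the 757 lowered genes it lay on the same side in 464 (61.3%) and below every mutant skin array in 180 (23.8%), with a median of 19.5% of the way (quartiles -31.7% and 68.4%). The same shares over all genes were not counted, and these genes were chosen by their mutant skin values. The shares alone therefore do not show whether melanoma 6 followed the other melanomas. Genes in which melanoma 6 lay above every mutant skin array with the other melanomas include crestin, mycn, mitfa, syngr1a, ap3m2 and dtnbp1a, named after their values were seen. The genes whose change rose most on leaving it out were slc20a1a, glb1l and nrp2b, together with si:dkeyp-1h4.9. The last was at the floor in melanoma 3 and 6 and in mutant skin 3 and 6. The phosphate transporter gene slc20a1a was at 1.1 to 3.41 in melanoma 1 to 5 and at -3.83 in melanoma 6, below all mutant skin (-3.13 to 0.24), and was not called with all arrays (adjusted p = 0.164). It was called without melanoma 6 (3.43 ± 0.79, adjusted p = 0.00715) and, among other settings, without the 7 oocyte-rich arrays. The neuropilin gene nrp2b, a co-receptor for VEGF and semaphorins, was called with all arrays (3.45 ± 0.99, adjusted p = 0.0334), a call lost without any 1 of melanoma 1 to 5 or mutant skin 1, 4 or 6 (adjusted p up to 0.08), and it changed by 4.34 ± 0.73 without melanoma 6.

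**Figure D5:**
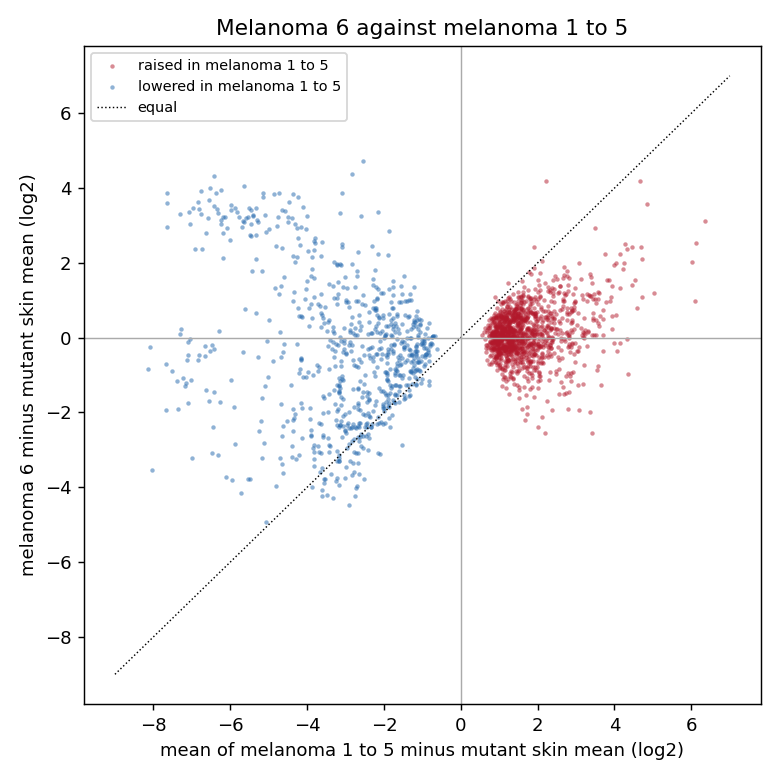
Each point is a gene called without melanoma 6, 1205 raised (red) and 757 lowered (blue), with the mean of melanoma 1 to 5 minus the mutant skin mean on the horizontal axis and melanoma 6 minus the mutant skin mean on the vertical axis, both in log2 units. Most raised genes lie well below the dotted line of equality, and a cloud of lowered genes at the upper left lay above mutant skin in melanoma 6.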

How the data were processed

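Total RNA of 15 samples was measured on 1 Affymetrix zebrafish array each. The deposited values are log2 signals that the authors made with GCRMA, per the submitters' processing notes, which give no version. They are centred on a reference that is not given in the sources used here. After 115 control probe sets were left out, 15502 were tested, of which 10795 had 1 gene symbol in the platform annotation, 135 several and 4572 none (10711 matched RefSeq gene IDs). Probe sets of a gene were averaged, which gave 8793 genes. The lowest value, -6.64, is a floor that 85 values in 35 probe sets reach.

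Melanoma was compared with mutant skin in limma 3.58.1 (R 4.3.3), with 3 group means over all 15 arrays and Benjamini-Hochberg adjustment over all genes. The fit had 12 residual degrees of freedom. The script was tested on simulated data. Alternatives left out each array or the 7 oocyte-rich arrays, or changed the normalization, arrays, weights, prior, covariate, probe set rule or floor.

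Each of the 29 gene lists is described by counts and medians. The members and lists were chosen with earlier results of these data known. Named genes were the 12 largest rises and falls called in both fits, up to 4 members per list by size of change, the 6 genes with the largest SD over melanoma 1 to 5, the 4 genes each whose change rose or fell most without melanoma 6, and a fixed set of pigment and crest genes (some of which were not analysed here). Other members were named after their values were seen. Title numbers were checked as pairs of melanoma and skin, to be used only if the correlation of deviations was over 0.1 for all 6. It was over 0.1 for 4 of 6 numbers, so they were not used as pairs. Among the 6 genes with the largest SD, f13a1a.1 was low in numbers 2 and 3 of both groups. By contrast, LOC100002043 was high in melanoma 2 but in mutant skin 1, 2 and 6. The labels do not say whether equal numbers mark the same fish, and this was not tested further. Promoter motifs were not analysed here.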

Additional observations from a re-analysis of the deposited data

Results flagged for a closer look

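For each named gene in each group of 6 arrays, the highest and the lowest array were checked for a gap to the nearest other array that was above Dixon's 95% critical value as a share of the group's range. For genes chosen without regard to their values, chance gives this in about 1 in 20 groups. It occurred in 49 of the 284 groups tested (17.25%), and 35 of the 49 were in melanoma 6. Many of these genes were chosen by these same values, some because their change moved most without melanoma 6. The counts therefore cannot be set against that rate.

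Melanoma 6 was low in genes that were high in the other 5 melanomas. Its level was -0.40 for mitfa, -0.59 for sox10, 0.11 for tyr, 0.032 for ap3m2, -1.73 for ablim3, -1.95 for runx3 and -1.43 for araf. It was also low for slc20a1a (-3.83), glb1l (-3.25), the clock gene bhlhe41 (-3.16) and the chaperone gene dnajc3b (-1.12).

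Melanoma 6 was high in muscle genes that were low in melanoma 1 to 5. Its level was 1.12 for mybphb, 1.93 for tpma, 0.56 for tnnc2.2, 0.25 for ldb3a, 0.59 for myl1, -0.11 for tnni2a.3 and 0.40 for tmem38a. For the parvalbumin genes pvalb1 and pvalb2 it was 1.25 and 0.88.

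It was high as well in oocyte and egg coat genes, at 8.06 for zp2.6, 7.63 for zp3a.2, 7.99 for cldnd and 8.28 for org. The same held for birc5b (7.56), bokb (4.98), zgc:173770 (10.5), zgc:171474 (9.36) and zgc:171776 (9.58). Genes of the liver were at 11.2 for vtg2, the yolk precursor, 7.32 for serpina1l and 6.67 for tfa. The gene apoc1, counted above among the macrophage and neutrophil markers, was at 4.59. Its lyz and gpx1b levels were 1.67 and 2.07.

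The other melanomas stood apart in few genes. Melanoma 3 was at 2.05 for csf1b, 5.03 for nkl.4 and 6.45 for scg2a. Melanoma 2 was at 1.42 for grb2a and -2.82 for klf2a, a flow-responsive transcription factor gene, and melanoma 4 at -0.63 for ero1a, an oxidase gene of protein folding.

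In mutant skin, array 2 was at 2.92 for col9a2, -1.83 for krt97 and -2.20 for klf2a, and array 1 at -2.10 for tomm40l and -0.64 for mrpl52. Mutant skin 3 was at 1.81 for nkl.4, mutant skin 4 at -2.33 for ap3b1a and mutant skin 6 at -4.01 for kita.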

How the results depend on the processing

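Of the 142 genes checked by name, 0 changed direction between all arrays and a setting where either one called them (genes called in neither were not counted), and of the 80 called among them 61 to 80 stayed called when 1 array was left out, 73 without the 7 oocyte-rich arrays and 70 with the oocyte level as a covariate. Among the genes named in the text, bysl, cbx1b, eprs1, gars1, gsr, kdm5bb, lfng, pax3a, pgd, slc11a2, slc1a4, slc27a2a, snapin, taldo1, tfap2a and vps39 lost their call both without the 7 oocyte-rich arrays (adjusted p up to 0.321, for pgd) and with the oocyte covariate (up to 0.134, for gars1). Without those arrays chac1, hmgcs1, mcl1a, snrpd1 and srsf1a lost it too, and with the covariate ap3s1, epcam, fgfr4, gadd45bb, imp4, kita, mgst3a, mrpl52, nat10, nqo1, nrp2b, runx3 and snai2 did. Leaving out 1 array gave 361 to 1205 raised and 336 to 757 lowered genes, and 559 to 2004 raised and 404 to 1097 lowered probe sets. The highest values came without melanoma 6 and the lowest without mutant skin 1 (raised) or without melanoma 1 (lowered genes) or 5 (lowered probe sets). Array quality weights gave 1666 raised and 1198 lowered genes, and 2526 and 1774 probe sets. Without the 7 oocyte-rich arrays 1003 genes and 1518 probe sets were lowered, and with the oocyte level as a covariate 957 and 1381. Lowered probe sets numbered 1051 with the replicate number as a block, which gave 794 raised and 695 lowered genes. Same-numbered melanoma and skin samples had correlations of deviations of -0.052 to 0.673, and 3 of the 6 melanomas correlated best with the skin of their own number. The other settings, which were quantile normalization, centring, the 12 arrays alone, a trended robust prior, 1 probe set per gene and no probe sets at the floor, kept each count within 1.5 times. The cause of these differences was not tested. Genes at the floor give bounds, and the number of arrays limits the precision.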
